A study of Homo sapiens with 8 samples.

Results

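Transcript levels were examined for 34 genes. They cover the amino acid stress programme driven by the transcription factor ATF4 and genes of serine and one-carbon enzymes. They also include sensors of protein folding stress and other genes of that response. The genes were taken by symbol, and a gene counted as measured where a probe set carried its symbol alone. Where a gene had several such probe sets, the one with the highest mean over all arrays was used. Of the 34 genes, 32 were measured, among 18417 genes in all. CBS was carried only by a probe set with several symbols, and no probe set was named GPT2 here, so both were left out. Every measured member lay above 5.03 on every array, which was the lowest lower quartile of any array, and the lowest member value was 5.97. All 32 therefore entered every test without a filter on dim genes.

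The study compared cells of A2780, a human ovarian carcinoma line, and of A2780CP20, a line derived from it and known for resistance to cisplatin. The 4 groups were A2780 with temsirolimus for 48 h, A2780 with temsirolimus for 24 h, A2780CP20 with no treatment, and A2780 with no treatment, with 2 Affymetrix Human Gene 1.0 ST arrays each. All cells were grown in RPMI with 10% fetal bovine serum. The temsirolimus stock was in DMSO, the labels give no dose, and they do not say whether untreated cells received DMSO. Temsirolimus is an ester of rapamycin that inhibits the kinase complex mTORC1.

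When amino acids run short or proteins misfold, kinases such as GCN2 (EIF2AK4) and PERK (EIF2AK3) phosphorylate the initiation factor eIF2, which slows most translation and favours that of ATF4. ATF4 pairs with C/EBP proteins and activates genes for amino acid synthesis, mitochondrial folate enzymes and regulators of stress. mTORC1 is also known to promote translation of ATF4, so the programme lies downstream of the kinase that temsirolimus inhibits. Serine made by PHGDH, PSAT1 and PSPH feeds the folate enzymes SHMT1, SHMT2 and the MTHFD family, which supply carbon for nucleotide synthesis.

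ATF4 and its C/EBP partners bind composite elements whose core reads TGATGNAA, where N is any base. RefSeq promoter windows of assembly GRCh38.p14, from 250 bases before to 50 bases after a gene's start, were found for 28 of the 34 genes. The core was searched on both strands and stood in 6 of these 28 genes, and in 4.46% of all 27305 genes with a window (3.62% of 35116 windows). The 6 genes are shown with 45 bases on each side, or fewer at a window's edge, because they span members that rose, fell and did not pass the test below. Each stretch is written 5′ to 3′ in the direction of the gene, with the core in capitals, and CHAC1 and HERPUD1 carry it on the opposite strand, so that it reads TTGCATCA.
ASNS, chr7:97872424-97872521, minus strand: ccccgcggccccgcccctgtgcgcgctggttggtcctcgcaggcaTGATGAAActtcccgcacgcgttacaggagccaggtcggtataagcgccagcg
CHAC1, chr15:40953221-40953314, plus strand: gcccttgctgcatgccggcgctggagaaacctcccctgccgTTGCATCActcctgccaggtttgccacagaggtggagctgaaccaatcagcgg
JDP2, chr14:75427961-75428058, plus strand: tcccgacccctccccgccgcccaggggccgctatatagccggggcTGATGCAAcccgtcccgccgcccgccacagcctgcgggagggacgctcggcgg
MTHFD1L, chr6:150866312-150866409, plus strand: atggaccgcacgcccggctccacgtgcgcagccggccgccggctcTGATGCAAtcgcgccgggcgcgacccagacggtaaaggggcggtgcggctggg
CEBPG, chr19:33374026-33374123, plus strand: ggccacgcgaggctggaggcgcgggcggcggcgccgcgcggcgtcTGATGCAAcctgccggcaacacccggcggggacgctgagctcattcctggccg
HERPUD1, chr16:56931921-56932018, plus strand: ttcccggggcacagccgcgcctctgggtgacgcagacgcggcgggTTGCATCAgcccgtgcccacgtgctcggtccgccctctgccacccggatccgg

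XBP1, the transcription factor whose messenger IRE1 splices, held the other element searched. This was the endoplasmic reticulum stress element, CCAAT and CCACG separated by 9 bases, found on either strand in 0.0916% of the 27305 genes and in no other of the 28 members with a window. Both parts are in capitals in the stretch below, again in the direction of the gene.
XBP1, chr22:28800558-28800666, minus strand: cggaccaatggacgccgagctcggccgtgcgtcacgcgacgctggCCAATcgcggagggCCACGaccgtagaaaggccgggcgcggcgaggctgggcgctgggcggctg

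The XBP1 element began 52 bases before the start. A match gives letters only, and the arrays hold no measure of binding at these sites. The first base of the core lay 68 bases before the start in ASNS, 209 in CHAC1, 16 in JDP2, 129 in MTHFD1L, 42 in CEBPG and 176 in HERPUD1. For MTHFD1L the same site fell in 3 windows with different starts, 129 and 90 bases before 2 of them and 24 bases after the third.

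The arrays labelled 24 h stood apart from the rest, and this touches every value given for them. Across the 18417 genes they correlated with the other 6 arrays at r = 0.950 to 0.952, against 0.979 to 0.996 between groups among those 6 arrays and 0.991 to 0.997 within groups. At 24 h 1181 of the genes differed at least 2-fold from untreated A2780, against 15 at 48 h and 127 in A2780CP20. Of 10 markers of epithelial and Mullerian cells, 2 rose and 2 fell at 24 h, where 14.9% of all genes were called higher and 15.3% lower, and none was called at 48 h or in A2780CP20. The array means of this list ranged over 6.15 to 6.18 at 48 h, 6.71 to 6.83 at 24 h, 6.37 to 6.42 in A2780CP20 and 6.35 to 6.40 in untreated A2780. EPCAM averaged 7.73 at 24 h and 5.56 in untreated A2780, and KRT18, whose probes are uncertain because of its pseudogenes, 10.52 at 24 h and 7.58 in untreated A2780. The 2 that fell were ESR1 (-0.49) and SOX17 (-0.37), and PAX8 was at -0.31 and not called. The median difference of the 10 markers at 24 h was -0.05, so the higher list mean went with EPCAM and KRT18. Of 5 leukocyte markers PTPRC rose and CD68 fell at 24 h, while none of 5 endothelial or 2 erythroid markers passed limma's test there, or reached an unadjusted p under 0.05. In A2780CP20 1 of the 2 erythroid markers rose. Whether these 2 arrays hold A2780 given temsirolimus for 24 h, another cell line or exchanged labels was not tested, so values at 24 h describe the arrays with that label. The part of these differences in the members' values was not tested. Array medians lay between 6.66 and 6.72. Each array measured RNA of a whole culture, so a change in the mix of cells and a change in RNA per cell cannot be told apart.

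Each difference below is on the log2 scale, between the means of 2 groups, and ± marks its standard error in a limma fit to all 8 arrays (n = 2 arrays per group). A gene was called when its limma p, adjusted by Benjamini-Hochberg over the 18417 genes, was under 0.05. At 48 h versus untreated A2780 0 of 32 members were called, at 24 h 11 were higher and 5 lower, and in A2780CP20 6 were higher and 3 lower. At 48 h versus 24 h 3 were higher and 11 lower. Of all genes, 0.163% were higher and 0.0163% lower at 48 h, and 14.9% and 15.3% at 24 h. In A2780CP20 6.37% and 12.0% were higher and lower, and 15.2% and 15.7% at 48 h versus 24 h. The 3 comparisons with untreated A2780 share its 2 arrays, so their values are given side by side. In all, 23 members were called in at least 1 of the 4 comparisons and 9 in none. The share of all genes called in at least 1 was not counted, so no conclusion is drawn from these 2 counts. The members that were never called were ATF4, CEBPG, VLDLR, XPOT, MTHFD1L, ALDH1L2, EIF2AK4, HERPUD1 and ERN1.

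**Figure D1:**
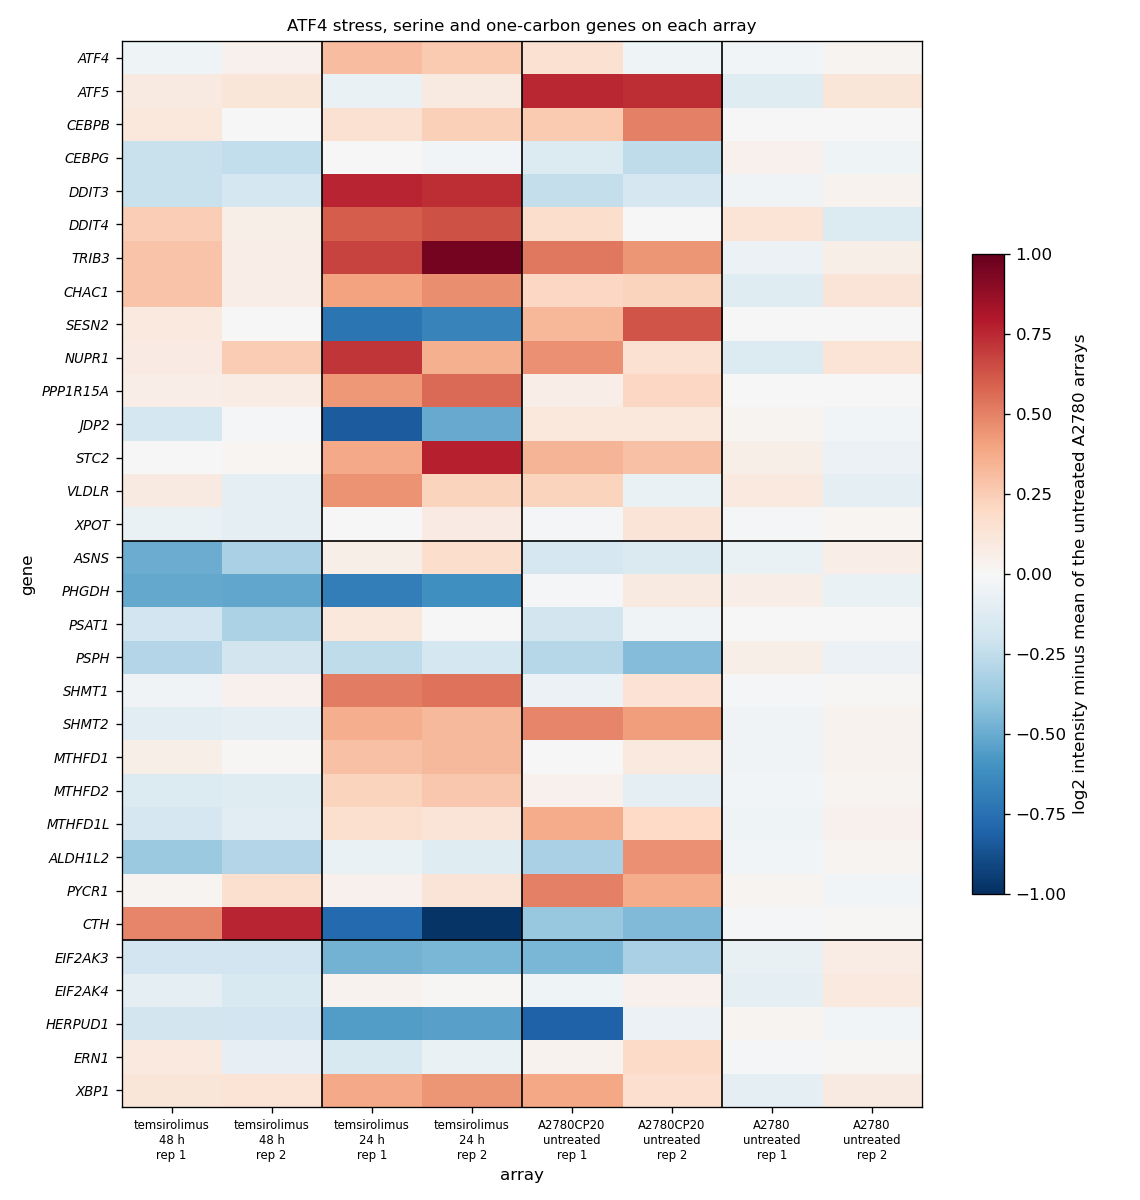
Each row is a member and each column an array, coloured by log2 intensity minus the mean of the 2 untreated A2780 arrays. Red is higher and blue lower, on a scale from -1 to 1. Lines separate the 4 groups, and also the regulators, the enzymes, and the genes of the eIF2 kinases and IRE1 arm. DDIT3 and TRIB3 are red and SESN2, PHGDH and CTH blue on both arrays labelled 24 h, ATF5 is red on both A2780CP20 arrays, and CTH is red on both arrays labelled 48 h.

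The arrays labelled 24 h were set against untreated A2780 to ask about temsirolimus at that time, with the doubt about their identity given above. On the arrays labelled 24 h, 7 of the 15 stress regulators rose, 2 fell and 6 did not pass, and the median of the 15 was 0.33, against 0.01 over all genes tested. Over the 32 members the 11 higher calls made 34.4%, against 14.9% of all genes, and the 5 lower calls 15.6%, against 15.3%. The share of higher calls lay above the background and the share of lower calls close to it, and no test was made of either difference. Every member lay above the lowest lower quartile of any array, while the shares of all genes include dimmer genes. Without the dimmest 25% of genes 5507 were called at 24 h, against 5551 with them. The share called was thus higher among brighter genes. The members were also chosen with earlier results of these data known, so these shares are description only. The median of the 32 members was 0.13. No member changed 2-fold at 24 h.

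DDIT3 encodes CHOP, a C/EBP-related factor induced by ATF4 and linked to cell death under stress. It measured 7.78 and 7.83 log2 units at 48 h, 8.77 and 8.74 at 24 h, 7.77 and 7.84 in A2780CP20, and 7.97 and 8.04 in untreated A2780. DDIT3 rose by 0.75 ± 0.09 at 24 h (1.68-fold, adjusted p = 2.77e-04). The arrays labelled 24 h lay well above the other 6, and 48 h arrays lay just below the untreated ones. TRIB3, a pseudokinase induced by ATF4 and CHOP, measured 7.42 and 7.20 at 48 h, 7.81 and 8.09 at 24 h, 7.66 and 7.58 in A2780CP20, and 7.08 and 7.19 in untreated A2780. It rose by 0.82 ± 0.12 at 24 h (1.76-fold, adjusted p = 0.00128) and by 0.49 ± 0.12 in A2780CP20 (1.40-fold, adjusted p = 0.0294). At 48 h its difference of 0.17 ± 0.12 was not called (adjusted p = 0.657). The arrays at 24 h and of A2780CP20 did not overlap with each other or with untreated A2780, but their own difference of 0.33 ± 0.12 at 24 h minus A2780CP20 was not called (adjusted p = 0.0733).

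DDIT4, also known as REDD1, restrains mTORC1. It measured 8.66 and 8.69 at 24 h, against 8.19 and 7.92 in untreated A2780, a rise of 0.62 ± 0.12 (adjusted p = 0.00525). At 48 h its values of 8.30 and 8.11 overlapped those of untreated cells. PPP1R15A encodes GADD34, the phosphatase subunit that reverses eIF2 phosphorylation, and measured 7.86 and 7.99 at 24 h, against 7.43 and 7.42 in untreated A2780 (0.50 ± 0.09, adjusted p = 0.00413). The other regulators called higher were STC2, a secreted glycoprotein (0.58 ± 0.13), NUPR1, a stress-induced chromatin protein (0.54 ± 0.16), and CHAC1, which degrades glutathione (0.44 ± 0.12). Their adjusted p lay between 0.0100 and 0.0350. Each of these 3 calls was lost when certain single arrays were left out: for CHAC1 either array at 24 h or untreated replicate 1, for NUPR1 replicate 1 of either group or either array at 48 h, and for STC2 replicate 2 of either group.

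SESN2 and JDP2 went the other way. SESN2, a leucine sensor that restrains mTORC1 and is also an ATF4 target, measured 7.31 and 7.37 at 24 h, against 8.04 on both untreated A2780 arrays, and fell by 0.70 on the log2 scale (SE 0.11, adjusted p = 0.00182). JDP2, a repressor of AP-1 and ATF target genes, measured 7.39 and 7.72 at 24 h, against 8.25 and 8.20 in untreated A2780 (-0.67 ± 0.12, adjusted p = 0.00337). Both genes were lower on these arrays than on every other array of the series.

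ATF4 itself was higher by 0.29 ± 0.10 at 24 h and was not called (adjusted p = 0.0621). Its values were 11.15 and 11.24 at 48 h, 11.50 and 11.46 at 24 h, 11.35 and 11.15 in A2780CP20, and 11.17 and 11.22 in untreated A2780. A second, dimmer ATF4 probe set read 10.06 and 10.12 at 24 h, against 9.51 and 9.57 in untreated A2780, a difference of 0.55 ± 0.14 (adjusted p = 0.0361 over all 33297 probe sets). With the mean of both probe sets ATF4 was called. Both probe sets were highest on the arrays labelled 24 h, and both were near untreated values at 48 h, at 0.00 ± 0.10 and 0.02 ± 0.14. ATF4 is controlled mainly at translation, which these arrays do not measure.

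Among the 12 measured enzymes 3 rose and 2 fell at 24 h, with a median of 0.10, where 14.9% of all genes were higher and 15.3% lower. SHMT1, the cytosolic serine hydroxymethyltransferase, measured 8.82 and 8.85 at 24 h, against 8.29 and 8.32 in untreated A2780 (0.53 ± 0.10, adjusted p = 0.00369). SHMT2, its mitochondrial counterpart, rose by 0.35 ± 0.09 (adjusted p = 0.0163), and MTHFD1, the cytosolic folate enzyme, by 0.31 ± 0.09 (adjusted p = 0.0287). Neither SHMT2 nor MTHFD1 was called when any 1 of the 4 arrays compared was left out, nor was MTHFD1 with either array at 48 h left out. MTHFD2, a mitochondrial folate enzyme, measured 11.93 and 11.98 at 24 h, against 11.68 and 11.74 in untreated A2780, and did not pass (0.24 ± 0.09, adjusted p = 0.0758). A second MTHFD2 probe set differed by 0.45 ± 0.11 (adjusted p = 0.0356 over all probe sets), and the mean of both was called.

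PHGDH catalyses the first step of the route that branches from glycolysis to serine. It measured 11.42 and 11.41 at 48 h, 11.24 and 11.32 at 24 h, 11.91 and 12.02 in A2780CP20, and 12.00 and 11.86 in untreated A2780. The 4 arrays labelled temsirolimus, 2 of them the arrays labelled 24 h, lay below the 4 untreated arrays. PHGDH fell at 24 h (-0.65 ± 0.10, 1.57-fold lower, adjusted p = 0.00104), while at 48 h the difference of -0.51 ± 0.10 was not called (adjusted p = 0.124). Values at 48 h and 24 h differed by 0.13 ± 0.10, with a 95% interval from -0.08 to 0.35. The next enzymes of the route were not called at 24 h. PSAT1 was at 0.05 ± 0.10 and PSPH at -0.22 ± 0.10.

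CTH, the enzyme that makes cysteine from cystathionine and a target of ATF4, had the largest span of the members. It measured 8.29 and 8.56 at 48 h, 7.02 and 6.82 at 24 h, 7.42 and 7.36 in A2780CP20, and 7.79 and 7.81 in untreated A2780. No 2 groups overlapped. CTH fell at 24 h by 0.88 on the log2 scale (SE 0.12, 1.84-fold lower, adjusted p = 5.91e-04), and at 48 h it was 0.62 ± 0.12 above untreated cells, which was not called (adjusted p = 0.124). Between the times it was higher at 48 h than at 24 h by 1.50 ± 0.12 (2.84-fold, adjusted p = 2.38e-05), the only 2-fold difference of a member in the 4 comparisons.

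**Figure D2:**
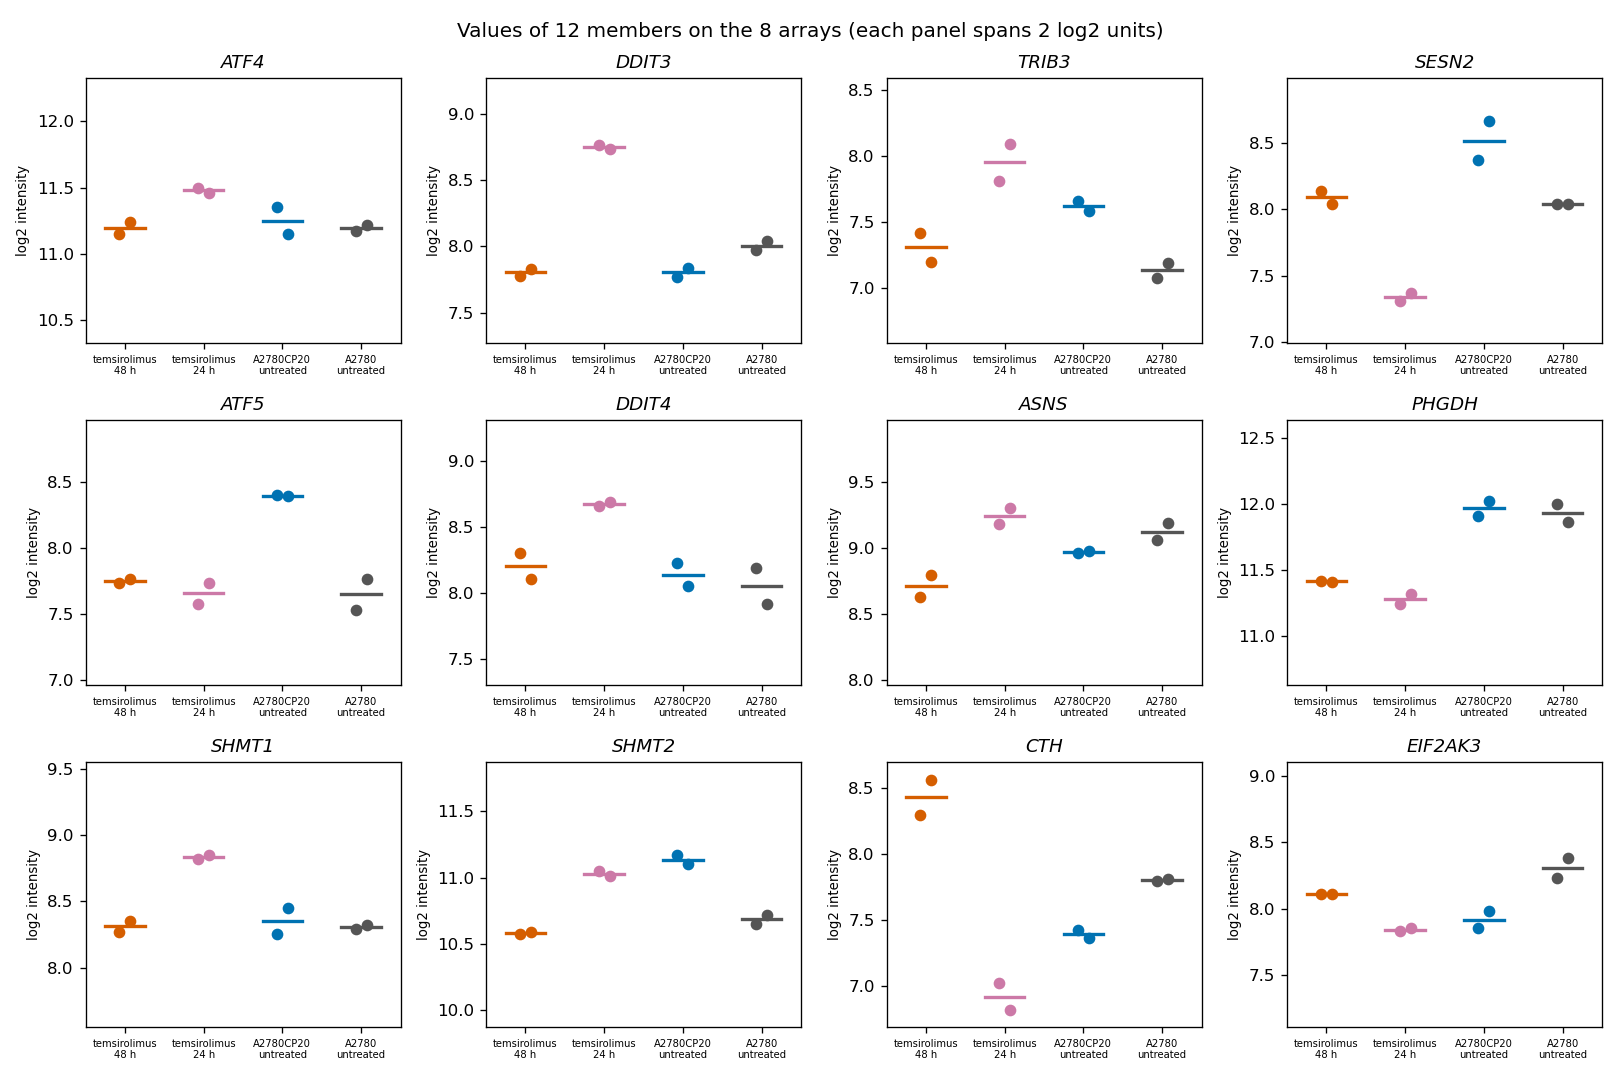
Each panel gives 1 member, with log2 intensity on the vertical axis (2 units in every panel), a point for each array and a bar for the mean of the 2 arrays of a group. The CTH means run from 8.43 at 48 h to 6.92 at 24 h, with untreated A2780 at 7.80. For PHGDH the 4 arrays labelled temsirolimus lie at 11.42 or below.

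Of the 5 genes of the eIF2 kinases and IRE1 arm, 1 rose and 1 fell at 24 h. This count is too small to set against the 14.9% and 15.3% of all genes. EIF2AK3, which encodes PERK, measured 8.11 on both arrays at 48 h, 7.83 and 7.85 at 24 h, 7.85 and 7.98 in A2780CP20, and 8.23 and 8.38 in untreated A2780. It fell by 0.47 at 24 h (SE 0.10, adjusted p = 0.00630) and by 0.39 in A2780CP20 (SE 0.10, adjusted p = 0.0255), while at 48 h it was at -0.20 ± 0.10 (adjusted p = 0.501). At 24 h EIF2AK3 was not called without untreated replicate 2. XBP1 rose by 0.41 ± 0.11 at 24 h (adjusted p = 0.0208), and was not called when either array at 24 h or untreated replicate 1 was left out. HERPUD1, a factor of the degradation of misfolded proteins, measured 9.74 and 9.75 at 24 h, against 10.32 and 10.27 in untreated A2780, but was not called (-0.55 ± 0.20, adjusted p = 0.0720). Its large standard error went with the A2780CP20 arrays, which read 9.49 and 10.24, and with either of these arrays left out HERPUD1 was called at 24 h (adjusted p = 9.20e-04). ERN1, which encodes IRE1, and EIF2AK4, which encodes GCN2, were at -0.11 ± 0.10 and 0.02 ± 0.10.

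The resistant line was set against its parent, both with no drug. The 6 higher members made 18.8% of the 32, against 6.37% of all genes, and the 3 lower ones 9.38%, against 12.0%. Without the dimmest 25% of genes 3856 genes were called, against 3388 with them, so the share called was higher among brighter genes. The limits on such shares given for 24 h hold here too. The median of the members was 0.07, against 0.03 over all genes. The stress regulators ATF5, TRIB3, SESN2 and CEBPB and the enzymes SHMT2 and PYCR1 rose, while CTH, PSPH and EIF2AK3 fell. The count was sensitive to the arrays in the fit. It was 5, all higher, without both arrays labelled 24 h, when CEBPB, CTH, PSPH and EIF2AK3 were no longer called. In a fit of the 2 groups alone the count was 1, and ATF5 was the call. Over all genes the calls numbered 3388, against 2533 without both arrays labelled 24 h and 1022 with the 2 groups alone. The calls over all genes thus fell too, and whether those of the members fell more steeply was not tested. The count of members also changed when 1 array was left out.

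ATF5, a relative of ATF4 that is also translated under stress, measured 8.40 and 8.39 in A2780CP20, against 7.53 and 7.77 in untreated A2780. Values at 24 h (7.58 and 7.74) and at 48 h (7.74 and 7.77) overlapped those of untreated A2780. The rise in A2780CP20 was 0.75 ± 0.11 (1.68-fold, adjusted p = 0.00391). The difference between the arrays labelled 24 h and A2780CP20 was itself called (-0.74 ± 0.11, adjusted p = 0.00106), as was that at 48 h (-0.64 ± 0.11, adjusted p = 0.00573).

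SESN2 measured 8.37 and 8.67 in A2780CP20, against 8.04 on both untreated A2780 arrays, and rose by 0.48 ± 0.11 (adjusted p = 0.0222). It was the only member called in opposite directions at 24 h and in A2780CP20, and the arrays labelled 24 h lay 1.18 ± 0.11 below A2780CP20 (adjusted p = 9.68e-05). CEBPB, which encodes a C/EBP partner of ATF4, rose by 0.39 ± 0.11 in A2780CP20 (adjusted p = 0.0382), while CEBPG was at -0.19 ± 0.09 and DDIT3 at -0.20 ± 0.09, neither called. The difference in DDIT3 between the arrays labelled 24 h and A2780CP20 was called (0.95 ± 0.09, adjusted p = 7.37e-05).

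SHMT2 measured 11.17 and 11.10 in A2780CP20, against 10.65 and 10.72 in untreated A2780 (0.45 ± 0.09, adjusted p = 0.0106). PYCR1, which completes proline synthesis in mitochondria, measured 6.98 and 6.85 in A2780CP20, against 6.51 and 6.45 in untreated A2780 (0.43 ± 0.10, adjusted p = 0.0182). Both genes were above untreated cells on each A2780CP20 array. PSPH, the last enzyme of serine synthesis, measured 10.34 and 10.19 in A2780CP20, against 10.68 and 10.57 in untreated A2780 (-0.36 ± 0.10, adjusted p = 0.0393). A second PSPH probe set gave -0.12 ± 0.12, and with the mean of both PSPH was not called in A2780CP20 (-0.24 ± 0.09) but was called at 24 h (-0.28 ± 0.09, adjusted p = 0.0408). CTH fell by 0.41 (SE 0.12, adjusted p = 0.0435). PHGDH (0.04 ± 0.10), PSAT1 (-0.11 ± 0.10) and ASNS (-0.15 ± 0.10) did not pass.

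The A2780CP20 arrays differed more from each other than those of other groups. Over the members, the SD of the difference between replicates was 0.245 in A2780CP20, against 0.121 at 48 h, 0.146 at 24 h and 0.126 in untreated A2780. ALDH1L2, a mitochondrial folate enzyme, read 7.66 and 8.44 in A2780CP20 and had the widest gap of the members. It was 0.07 ± 0.21 relative to untreated A2780, where it read 7.96 and 8.01. Without A2780CP20 replicate 1 it was 0.46 and without replicate 2 it was -0.32, both called, so its direction rested on 1 array. HERPUD1 was at -0.43 ± 0.20 in A2780CP20, with -0.80 without replicate 2 (called) and -0.05 without replicate 1.

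The arrays labelled 48 h were set against untreated A2780, a comparison that uses the arrays labelled 24 h only for the spread. No member was called by limma against untreated A2780, where 0.163% of all genes were called higher and 0.0163% lower. At an unadjusted p under 0.05 there were 7 of 32 members (21.9%), against 2043 of all genes (11.1%). These 7 were PHGDH, CTH, ASNS, PSAT1, CEBPG, PSPH and DDIT3, chosen after their values were seen, and all but CTH were lower at 48 h. With an intensity trend in the prior of the spread 1 member, PHGDH, was called (adjusted p = 0.0158). The median of the 32 members was 0.00, against -0.03 over all genes, and the members ranged from -0.51 to 0.62.

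ASNS, which makes asparagine and is a standard readout of ATF4, measured 8.63 and 8.80 at 48 h, 9.18 and 9.30 at 24 h, 8.96 and 8.98 in A2780CP20, and 9.06 and 9.19 in untreated A2780. The arrays labelled 48 h were the lowest of the series. The difference from untreated cells was -0.41 ± 0.10 and was not called (adjusted p = 0.208). The 3 enzymes of serine synthesis were at -0.51 ± 0.10 (PHGDH), -0.26 ± 0.10 (PSAT1) and -0.24 ± 0.10 (PSPH), with adjusted p between 0.124 and 0.437. For each the 48 h arrays lay below both untreated arrays. The share of all genes whose arrays separate in this way was not counted, so no conclusion is drawn from it. The folate enzymes were closer to untreated values, from -0.14 ± 0.10 for MTHFD1L to 0.03 ± 0.09 for MTHFD1, apart from ALDH1L2 at -0.33 ± 0.21. The second MTHFD2 probe set was at 0.22 ± 0.11 and did not pass, against -0.13 ± 0.09 for the one used. Over the 15 regulators the median was 0.05 and over the 5 genes of the eIF2 kinases and IRE1 arm -0.13.

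**Figure D3:**
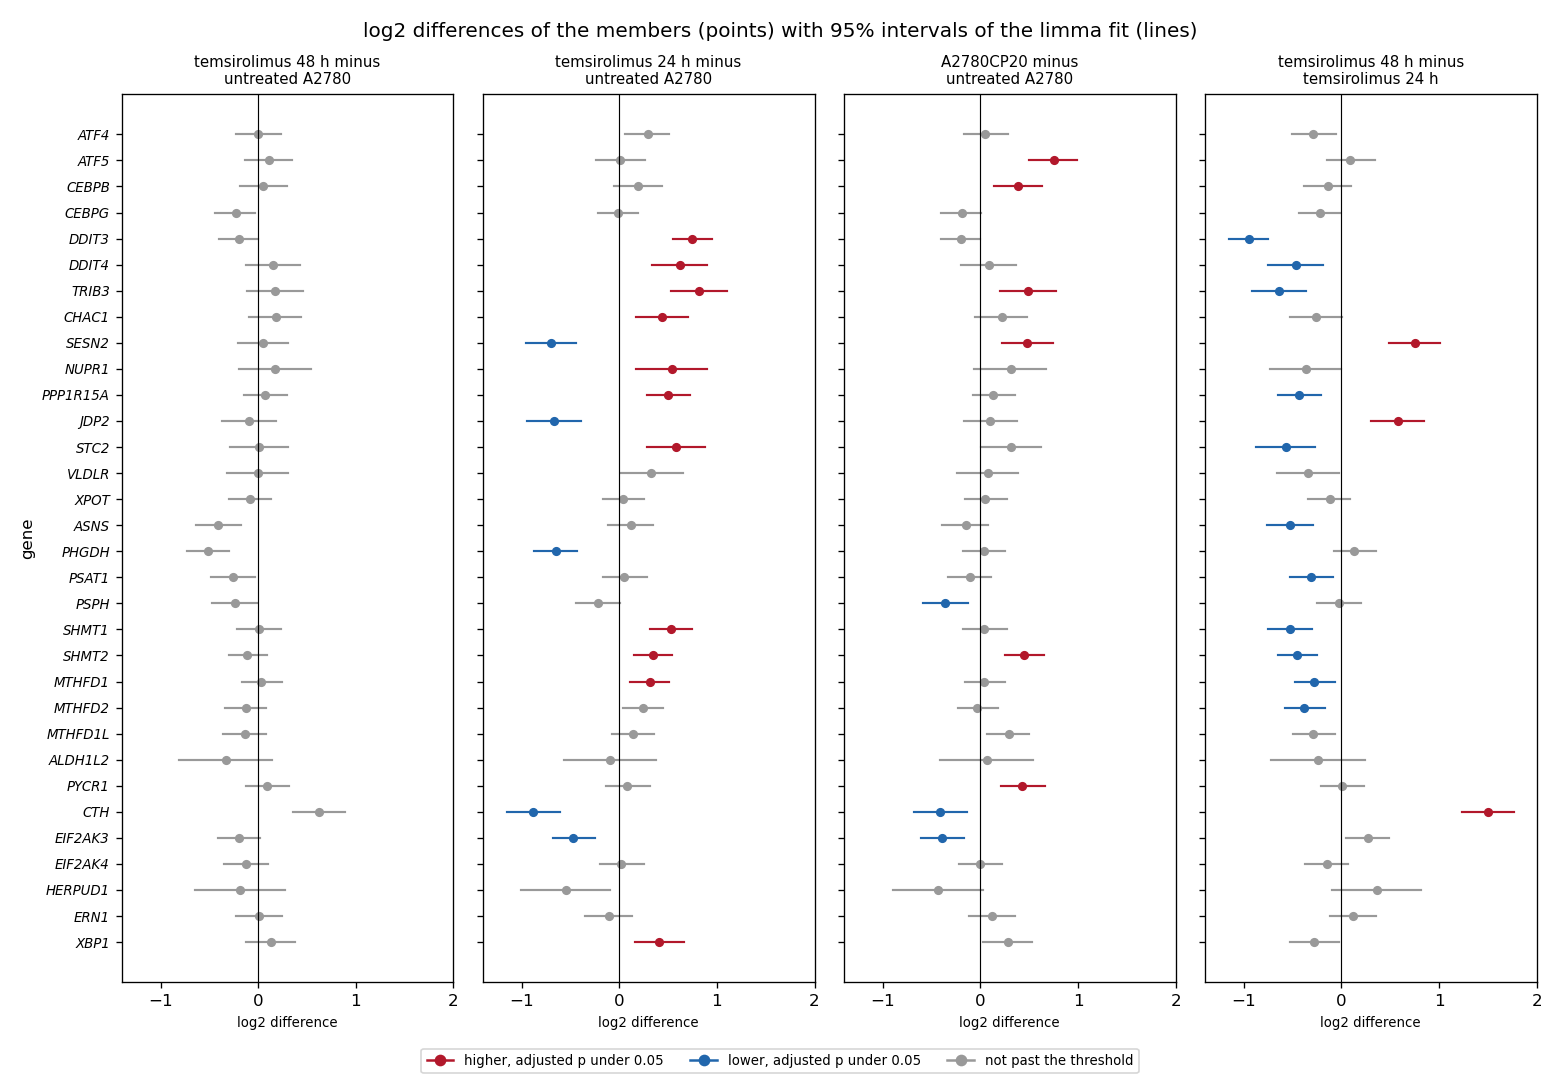
Points are log2 differences of group means for the 32 members in 4 comparisons, lines are 95% intervals of the limma fit, red and blue mark members called higher and lower, and grey marks the rest. All points at 48 h versus untreated A2780 are grey, while 14 members are coloured at 48 h versus 24 h, with CTH farthest to the right at 1.50.

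The difference between 48 h and 24 h is also the test of whether the effects at the 2 times differ, since untreated A2780 is common to both. There 11 members were lower at 48 h (34.4%, against 15.7% of all genes) and 3 higher (9.38%, against 15.2%). Without the dimmest 25% of genes 5570 were called, against 5702 with them, so the limits given for 24 h hold here too. The median of the members was -0.27, against -0.05 over all genes. Of the 16 members called at 24 h, 11 were called in the opposite direction here. These were DDIT3, DDIT4, TRIB3, SESN2, PPP1R15A, JDP2, STC2, SHMT1, SHMT2, MTHFD1 and CTH. Both comparisons use the arrays labelled 24 h, with opposite signs, so a call at 24 h favours an opposite call here. The share of all genes that did the same was not counted, so no conclusion is drawn from this overlap. The count of 14 fell when an array compared was left out, to 9 without replicate 1 at 48 h, 7 without replicate 2 at 48 h, 9 without replicate 1 at 24 h and 8 without replicate 2 at 24 h. It was 20 with the 4 arrays alone, and rose too with either A2780CP20 array left out. Calls over all genes moved the same way, from 5702 to 7067 with the 4 arrays alone. They likewise fell when an array compared was left out, and whether the calls of members shifted more was not tested. DDIT3, TRIB3, SESN2, ASNS, SHMT1, SHMT2 and CTH were called each time, while DDIT4, PPP1R15A, JDP2, STC2, PSAT1, MTHFD1 and MTHFD2 each lost the call with at least 1 of these 4 arrays left out.

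DDIT3 was lower at 48 h than at 24 h (-0.95 ± 0.09, adjusted p = 6.73e-05), TRIB3 was at -0.64 ± 0.12 (adjusted p = 0.00456) and SHMT1 at -0.53 ± 0.10 (adjusted p = 0.00381). SHMT2 measured 10.57 and 10.59 at 48 h, against 11.05 and 11.01 at 24 h (-0.45 ± 0.09, adjusted p = 0.00444). ASNS and MTHFD2 were called here and not at 24 h versus untreated A2780, at -0.53 ± 0.10 (adjusted p = 0.00460) and -0.38 ± 0.09 (adjusted p = 0.0133). MTHFD2 measured 11.57 and 11.59 at 48 h, against 11.93 and 11.98 at 24 h, and its second probe set, at -0.23 ± 0.11, did not pass. SESN2 was higher at 48 h by 0.75 ± 0.11 (adjusted p = 0.00123) and JDP2 by 0.58 ± 0.12 (adjusted p = 0.00716). EIF2AK3 (0.27 ± 0.10, adjusted p = 0.0640) and XBP1 (-0.28 ± 0.11, adjusted p = 0.0862) were not called between the times.

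**Figure D4:**
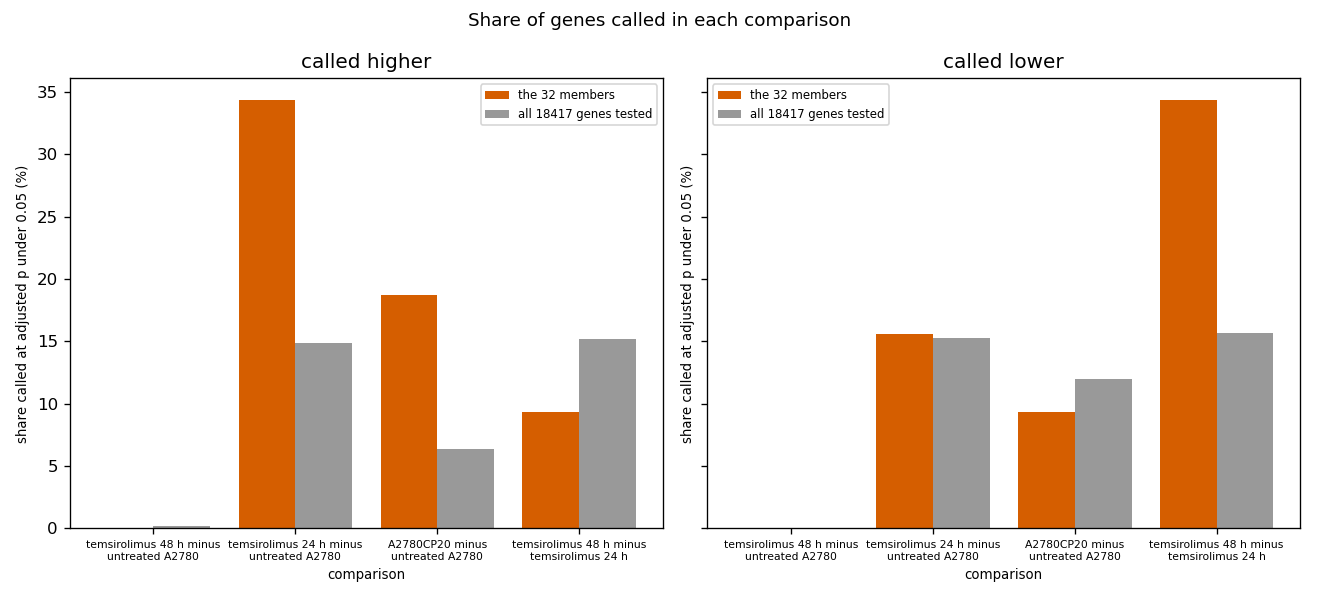
Bars give the percentage of genes called higher (left) and lower (right) in each comparison, orange for the 32 members and grey for all 18417 genes tested. The members exceed all genes in higher calls at 24 h (34.4% and 14.9%) and in A2780CP20 (18.8% and 6.37%). They also do in lower calls at 48 h versus 24 h (34.4% and 15.7%). The members were chosen with earlier results of these data known, and all genes include dimmer ones, so the bars are description only.

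Other genes of the same pathways were counted from 4 lists. Of 21 other folate and methionine cycle genes, 8 rose and 1 fell at 24 h, beside 14.9% and 15.3% of all genes. MAT2B, a subunit of the enzyme that makes S-adenosylmethionine, was higher by 1.34 ± 0.09 and MTHFD2L, a mitochondrial relative of MTHFD2, by 0.98 ± 0.10. In A2780CP20 4 of the 21 rose and 2 fell, beside 6.37% and 12.0% of all genes, with AHCY, which clears S-adenosylhomocysteine, at 0.57 ± 0.09 and MAT2B at -0.47 ± 0.09. At 48 h versus untreated A2780 none of the 21 was called, and the closest was AHCY (0.41 ± 0.09, adjusted p = 0.180). At 48 h versus 24 h 8 were lower and 1, AHCY, higher, beside 15.7% and 15.2% of all genes. Of 10 other enzymes of proline, aspartate and glutamine, ALDH18A1, which starts proline synthesis, was the only call at 24 h (0.50 ± 0.09), BCAT2 the only one in A2780CP20 (0.43 ± 0.10), and none was called at 48 h by limma, where 4 had an unadjusted p under 0.05. For the 21 folate genes that number was 2, and of all genes 11.1% had such a p.

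Of 20 other components of the eIF2 stress response, 7 rose and 4 fell at 24 h (all genes 14.9% and 15.3%). In A2780CP20 1 rose and 3 fell (all genes 6.37% and 12.0%). None was called at 48 h by limma, and 3 had an unadjusted p under 0.05, against 11.1% of all genes. EIF2S1, which encodes the phosphorylated subunit of eIF2, was higher by 1.00 ± 0.09 at 24 h, and KLHL24 was lower at 24 h (-1.76 ± 0.10) and in A2780CP20 (-1.56 ± 0.10). IMPACT, an inhibitor of GCN2, was lower in A2780CP20 (-0.66 ± 0.09). Of 21 other genes of the unfolded protein response, 4 rose and 3 fell at 24 h, and 1 rose and 1 fell in A2780CP20. These counts were near or below those same shares of all genes. None was called at 48 h by limma, and 2 had an unadjusted p under 0.05, against 11.1% of all genes. Of single genes, the chaperone gene HYOU1 was higher at 24 h by 0.63 ± 0.09 and SDF2L1 by 0.75 ± 0.13, while SEL1L, of the degradation machinery, was lower in A2780CP20 (-0.48 ± 0.09) and SYVN1, its ligase partner, higher (0.47 ± 0.14).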

How the data were processed

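The authors' deposited table holds 1 value per probe set and array for 33297 probe sets, between 1.80 and 14.99 with near-equal quartiles on every array. The range of the deposited values led to reading them as log2 intensities, and no source used here states the log base. Per the submitters' processing notes the software was Partek, whose version, background correction, normalization and probe summary no source used here gives. Values were used as deposited. Groups came from the sample titles. The labels do not say whether replicates came from different cultures. The p-values therefore reflect the spread of these arrays alone, which may be technical, and the number of arrays limits the precision.

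The platform's annotation table gave 1 symbol to 19460 probe sets, several to 1754 and none to 12083. The probe set with the highest mean stood for each of 18417 genes. A group-means model was fitted to all genes with limma 3.58.1 in R 4.3.3 (residual degrees of freedom 4, prior 4.48), two-sided, with Benjamini-Hochberg adjustment over all genes, and tested on simulated data. Differences between the temsirolimus groups and A2780CP20 came from the same fit and were added after the data were seen.

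Members and gene lists were chosen with earlier results of these data known. Array values are given for up to 5 called members per direction and comparison with the smallest adjusted p, and always for ATF4, DDIT3, TRIB3, ASNS, PHGDH, MTHFD2 and EIF2AK3. From the other lists up to 2 called genes per comparison are named. HERPUD1 and ALDH1L2 values in A2780CP20 are given in addition, for their spread. Alternatives were other normalizations, filters, probe set rules, arrays in the fit, a replicate block and other priors.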

Additional observations from a re-analysis of the deposited data

Results flagged for a closer look

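The differences from untreated A2780 on the arrays labelled 48 h and on those labelled 24 h were not the same for 14 members by the test of the difference itself (limma, adjusted p under 0.05). The effect at 48 h minus that at 24 h was 1.50 for CTH, 0.75 for SESN2 and 0.58 for JDP2. It was -0.95 for DDIT3, -0.64 for TRIB3, -0.57 for STC2, -0.53 for ASNS, -0.53 for SHMT1, -0.47 for DDIT4, -0.45 for SHMT2, -0.43 for PPP1R15A, -0.38 for MTHFD2, -0.31 for PSAT1 and -0.28 for MTHFD1, all on the log2 scale. For CTH the effect was 0.62 at 48 h and -0.88 at 24 h, on opposite sides of untreated cells. Arrays of the 24 h group had a correlation of 0.950 to 0.952 with the other 6, and the part of that gap in these differences was not tested.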

How the results depend on the processing

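Calls were recomputed under 18 other settings. At 24 h versus untreated A2780 9 of the 16 called members were called in all 17 settings that apply (DDIT3, DDIT4, TRIB3, SESN2, PPP1R15A, JDP2, PHGDH, SHMT1 and CTH). At 48 h versus 24 h 7 of 14 were (DDIT3, TRIB3, SESN2, ASNS, SHMT1, SHMT2 and CTH), and in A2780CP20 1 of 9, ATF5, in all 18. The count of 9 in A2780CP20 was 5 without both arrays labelled 24 h, 1 with only the groups compared, 3 with every probe set tested, and 1 to 10 when 1 array was left out. The count of 14 at 48 h versus 24 h was 7 to 21 when 1 array was left out, and that of 0 at 48 h was 1 with an intensity trend in the prior. Apart from the trend, these fits have fewer arrays or more features, and the cause was not tested further. Over all genes the calls in A2780CP20 numbered 3388, against 1022 with only the groups compared and 2087 of every probe set tested, and at 48 h 33, against 68 with the trend and 13 of every probe set. A fit with 1 array in a group assumes that it varies like the other groups. ALDH1L2 in A2780CP20 ran from -0.32 to 0.46 when 1 array was left out, and changed direction without replicate 2. A change of direction was counted only for values called in one of the fits compared, and a further 31 values changed sign without being called in either fit, all between -0.11 and 0.07. Among the 48 h, A2780CP20 and untreated A2780 groups, the differences between replicates 1 and 2 correlated at 0.117 to 0.181 across genes. Those of the arrays labelled 24 h correlated with the other groups at 0.00202 to 0.0387. Whether replicate numbers pair the arrays was not tested. With the replicate number as a block 17 members were called at 24 h, 8 in A2780CP20, 13 at 48 h versus 24 h and 0 at 48 h versus untreated A2780. Over all genes the calls with this block numbered 5642, 3555, 5885 and 35 in the same order, against 5551, 3388, 5702 and 33 without it.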
